A study of Mus musculus with 32 samples.

Results

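Expression of 10 chaperone and heat shock factor genes was followed in mouse germ cells through the first wave of spermatogenesis. They comprised 4 genes of the cytosolic HSP70 superfamily (Hspa2, Hspa8, Hspa1l and Hspa4l), 4 chaperone genes of the endoplasmic reticulum, or ER (Hspa5, Calr, Clgn and Calr3), and 2 transcription factor genes (Hsf1 and Hsf2). The genes were taken as a list of symbols, chosen with earlier results of these data known, and each symbol was mapped to its Ensembl identifier with GENCODE. All 10 were among the 20368 genes that reached at least 3 TPM (a transcript level scaled for length and to the same total in each library) in at least 1 juvenile mouse.

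The libraries were poly-A RNA-seq libraries of C57BL/6J males. Each juvenile library held the germ cells of 1 mouse, with 3 mice at 8 days post-partum (dpp) and 5 mice at each of 10, 12, 14, 16 and 18 dpp; the tubules had been washed to remove interstitial cells. The authors had collected 5 mice at 8 dpp and left out those that matched poorly with others of that age in cytology and RNA-seq. Each of the 4 adult libraries held pachytene and diplotene spermatocytes of 6 pooled mice of 9 weeks, enriched by sedimentation at unit gravity. These libraries carry another prefix in their labels than the juvenile ones, and the labels do not say what it stands for. Adult age, enrichment of cells, pooling of mice and whatever the prefix marks thus differ together and cannot be told apart. No group carried a mutation or a treatment.

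HSP70 proteins bind exposed hydrophobic stretches of unfolded proteins and release them with the use of ATP. HSPA8 is the constitutive member found in most cells, HSPA2 is the testis-enriched member known from meiotic spermatocytes and needed for male fertility in mice, and HSPA1L is a testis-enriched member known from spermatids. HSPA4L belongs to the HSP110 branch, whose proteins act as nucleotide exchange factors for HSP70. In the ER, HSPA5 (BiP) is the resident HSP70, calreticulin (Calr) and calnexin (Canx) bind glycoproteins, and calmegin (Clgn) and calreticulin 3 (Calr3, also calsperin) are the testis-specific relatives of calnexin and calreticulin. HSF1 is the factor that turns on chaperone genes after heat shock, and HSF2 is a related factor with a known part in spermatogenesis.

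The labelled germ cell populations were checked against marker genes. The summed level of 6 spermatocyte markers rose from 268 to 400.4 TPM at 8 dpp to 1528 to 1707 TPM at 18 dpp, and all 6 passed the test upward. The 8 Sertoli cell markers were also present, with a sum of 6904 to 7778 TPM at 8 dpp, 3259 to 4244 TPM at 18 dpp and 294 to 435 TPM in the adult pools; 7 of them fell and 1 rose. The 6 spermatogonium markers fell, from a mean sum of 966 TPM to 480.1 TPM, and of the 6 spermatid markers 5 stayed under 3 TPM in every juvenile mouse. The remaining spermatid marker, Acr, went from 0.21 TPM at 8 dpp to 76.5 TPM at 18 dpp and passed the test upward. The spermatid sum was 1080 to 1388 TPM in the adult pools, in which transition protein and protamine transcripts were thus present. Sums for peritubular cells were 1572 TPM at 8 dpp, 1098 TPM at 18 dpp and 20.4 TPM in the adult, and those for red blood cells 464, 308 and 6.77 TPM. Means at the same times were 188, 267 and 234 TPM for Leydig cells, 35.3, 71.3 and 3.75 TPM for macrophages, and 56.4, 46.8 and 2.28 TPM for endothelial cells. Most of the adult Leydig sum was Insl3, with 176 TPM in the adult and 58.3 TPM at 8 dpp. The other Leydig markers, Cyp17a1, Cyp11a1, Hsd3b1, Star and Lhcgr, were lower in the adult than at 8 dpp. In such bulk samples fewer cells of a type and less RNA per cell cannot be told apart.

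Stretches just upstream of the transcription starts are shown for genes whose levels moved together or furthest, from RefSeq on GRCm38.p6. Windows of 250 bases were found for 7 of the 10 genes, with 2 starts for Calr3 and none for Hspa8, Hsf1 and Clgn. An ER stress response element, CCAAT followed after 9 bases by CCACG, on either strand, was present upstream of Hspa5 and Calr and in none of the other windows; 37 of 32851 promoters (0.113%) held it. This element is known to be bound by NF-Y and ATF6 and was first described in ER chaperone promoters. The 2 matches are given on the strand of the gene with the element in capitals. The match of Hspa5 began 65 bases before the start and overlapped an annotated GENCODE exon, and that of Calr began 162 bases before the start, in the reverse orientation and outside exons.
Hspa5 element, chr2:34772020-34772048, plus strand: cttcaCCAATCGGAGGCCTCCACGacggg
Calr element, chr8:84847070-84847098, minus strand: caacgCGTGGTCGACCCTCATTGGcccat

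The longest run of the window before the RefSeq start that lies outside annotated exons follows for Hspa5, Calr and Hspa2, the last as the HSP70 gene with the largest rise. Capitals mark the ER element, the CCAAT box (CCAAT, on either strand, in 33.8% of all promoters) and the GC box (GGGCGG, on either strand, in 32.7%); a CCAAT box that lies inside the ER element is counted as both. The stretches of Hspa5 and Calr lie before the whole gene in GENCODE, whereas that of Hspa2 lies inside it, in the intron after its first annotated exon, since GENCODE places a start further upstream. The whole Hspa2 window held 3 GC boxes and began at base 76404120, before the gene, and that first part is not shown.
Hspa5, chr2:34771840-34771969, plus strand: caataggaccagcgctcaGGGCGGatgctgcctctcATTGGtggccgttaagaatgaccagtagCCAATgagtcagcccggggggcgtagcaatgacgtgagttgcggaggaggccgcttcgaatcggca
Calr, chr8:84846935-84847181, minus strand: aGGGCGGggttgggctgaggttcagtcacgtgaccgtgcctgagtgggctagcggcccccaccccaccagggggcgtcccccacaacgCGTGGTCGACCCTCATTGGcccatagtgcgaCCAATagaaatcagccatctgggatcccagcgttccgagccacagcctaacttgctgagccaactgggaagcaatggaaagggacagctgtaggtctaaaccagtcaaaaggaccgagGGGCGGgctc
Hspa2, chr12:76404290-76404369, plus strand: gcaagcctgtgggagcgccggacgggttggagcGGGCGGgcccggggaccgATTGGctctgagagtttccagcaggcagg

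Neither form of the core heat shock element, GAANNTTC or TTCNNGAA (both strands; in 6.69% and 7.17% of all promoters), nor the cAMP response element TGACGTCA (1.55%) was found in the windows of the 7 genes. Whether any of these letters is bound in germ cells was not measured.

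Levels of the 10 genes fell into 3 patterns. By the test given below, Hspa2, Clgn and Hspa4l were called upward at 3 of the 5 steps, and they were highest in the adult spermatocytes. Hspa5, Calr and Hsf1 were called upward between 10 and 12 dpp and at no later single step. Hspa8 and Hsf2 ended lower than they began. Hspa1l and Calr3 did not exceed 6.25 TPM in any juvenile mouse. Tested with limma on log2(TPM + 1) in 1 model of the 28 mice, with p-values adjusted by the Benjamini-Hochberg method over all 20368 genes and called below 0.05, 8 of the 10 genes differed between 18 and 8 dpp, 6 upward and 2 downward. Of all genes 68.2% were called in that comparison, so that the share of the 10 genes called in either direction lay near the background. By direction, 6 of the 10 stood beside 31.8% of all genes upward and 2 beside 36.3% downward, in a list chosen with earlier results known. In the test for any difference among the 6 ages 9 of the 10 were called, with Calr3 as the exception (adjusted p = 0.13 by limma), against 77.6% of all genes.

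**Figure D1:**
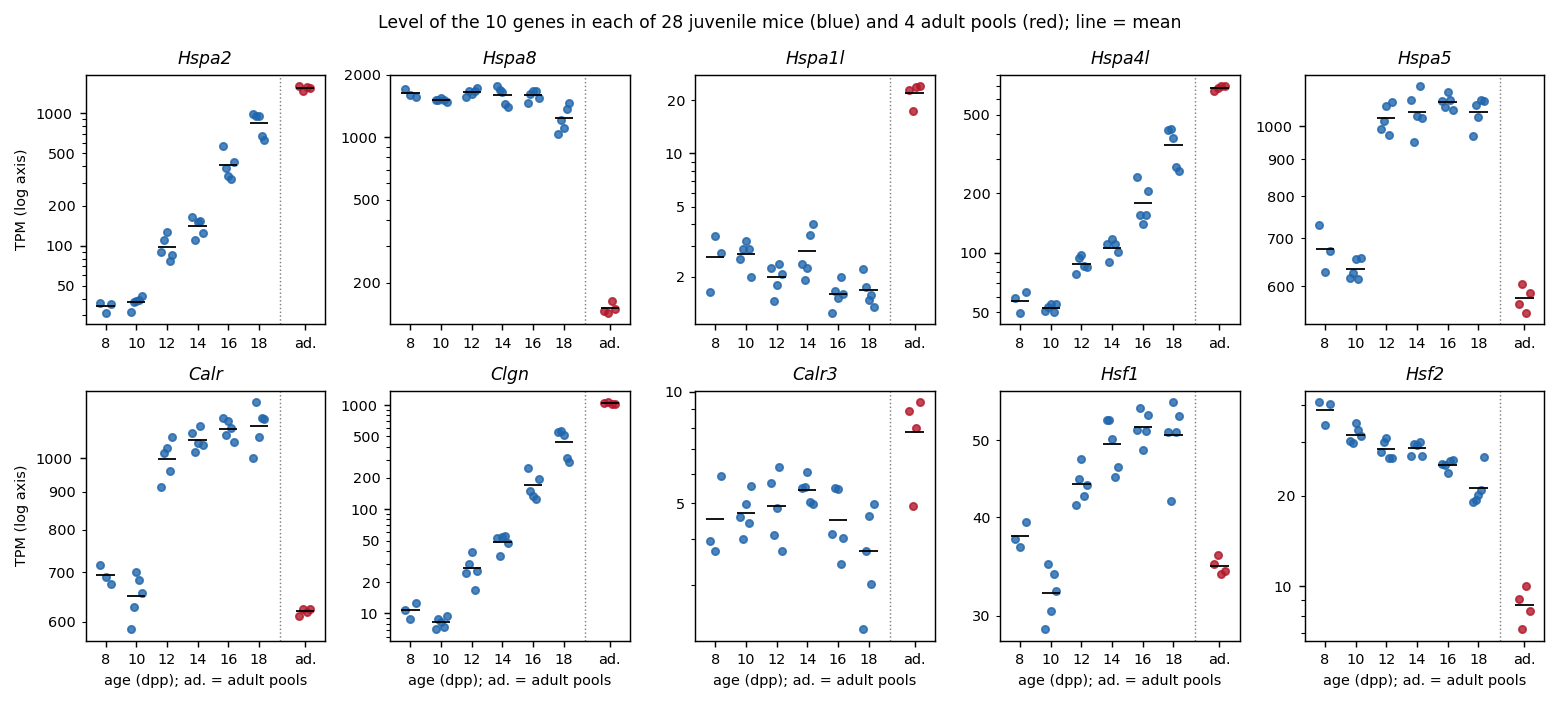
Level of each gene in TPM (log axis, a range of its own in each panel) against age in dpp, with 1 point for each of the 28 juvenile mice (blue) and 4 adult pools (red) and a line at the mean. Hspa2, Hspa4l and Clgn climb to the adult level, Hspa5 and Calr step up between 10 and 12 dpp, and Hspa8 and Hsf2 are lowest in the adult pools.

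Hspa2 (chr12:76404176-76406938, plus strand; coordinates here and below are of the whole gene in GENCODE M21, GRCm38), the meiotic HSP70, had 37.2, 31.1 and 36.6 TPM in the 3 mice of 8 dpp and 31.6, 37.4, 38.6, 38.9 and 41.6 TPM at 10 dpp. It then reached 89.1, 109.9, 126, 77.3 and 85.8 TPM at 12 dpp, 164, 111, 151, 155 and 125 TPM at 14 dpp, and 571, 386, 336, 318 and 431 TPM at 16 dpp. The mice of 8 and 10 dpp overlapped, whereas every mouse of 12 dpp lay above them and every mouse of 16 dpp lay above those of 14 dpp. At 18 dpp the values were 992, 947, 949, 671 and 633 TPM, all above those of 16 dpp. The mean was 24.0 times as high at 18 dpp (838 ± 172 TPM, SD, n = 5) as at 8 dpp (35.0 ± 3.35 TPM, SD, n = 3), and the difference on the log2(TPM + 1) scale was 4.52 ± 0.18 (SE; limma adjusted p = 4.1e-17).

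The rise of Hspa2 passed the test at 3 steps. The differences were 1.34 from 10 to 12 dpp (limma adjusted p = 3.7e-07), 1.51 from 14 to 16 dpp (3.1e-08) and 1.04 from 16 to 18 dpp (5.7e-06). Those from 8 to 10 dpp (0.10) and from 12 to 14 dpp (0.54, limma adjusted p = 0.16) did not pass the test. From 12 to 14 dpp the mean was higher, at 97.6 and 141 TPM, and the ranges overlapped. The adult pools had 1610.2, 1463, 1567 and 1546 TPM, all above every juvenile mouse, as did the pools of 21.4% of all genes. The adult table had been normalized apart from the juvenile one, so that no test was run between them here or below.

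Hspa4l (chr3:40744495-40796103, plus strand), the HSP110 relative, had 59.0, 49.5 and 62.9 TPM at 8 dpp and 50.5, 52.9, 54.7, 50.1 and 54.9 TPM at 10 dpp. At 12 dpp it stood at 77.8, 94.1, 97.8, 85.5 and 85.1 TPM, above every younger mouse. At 14 dpp its range was 90.2 to 118 TPM and at 16 dpp 141 to 241 TPM. The mice of 18 dpp had 420.3, 424, 383, 271 and 258 TPM, again without overlap with 16 dpp. The mean rose 6.14-fold from 8 to 18 dpp (57.2 ± 6.90 to 351 ± 80.9 TPM, SD), by 2.57 ± 0.16 on the log2 scale (SE; limma adjusted p = 7.4e-14). As with Hspa2, the steps at 12 (0.73), 16 (0.73) and 18 dpp (0.96) passed the test and the other steps did not. The adult pools had 659 to 701 TPM, above every juvenile mouse.

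Hspa8 (chr9:40800984-40810087, plus strand), the constitutive HSP70, was at first the highest of the 10 genes, with 1715, 1595 and 1566 TPM at 8 dpp. Ranges at 10 to 16 dpp lay between 1403 and 1767 TPM and no step among these ages passed the test. At 18 dpp the values were 1043, 1205, 1106, 1374 and 1466 TPM, all below those of 8 dpp, and only the highest of them reached the range of 16 dpp (1465 to 1669 TPM). The difference from 16 to 18 dpp was -0.37 (limma adjusted p = 1.5e-04) and that from 8 to 18 dpp -0.40 ± 0.09 (SE; limma adjusted p = 1.6e-04). After quantile normalization the latter was -0.02 with an adjusted p of 0.79, so that the fall between these ages depends on how libraries are scaled. The adult pools held 143 to 163 TPM, below every juvenile mouse, as for 47.6% of all genes.

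Levels of Hspa8 carry a further uncertainty. Gm26825, annotated as a long intergenic noncoding gene on another chromosome, shared 34.0% of the 50-base words of the Hspa8 transcripts, and reads of this shared stretch can be divided between them. Its level was 1399 ± 38.9 TPM at 8 dpp, 1074 ± 158 TPM at 18 dpp and 137 ± 7.84 TPM in the adult (SD), close to that of Hspa8 itself. With both summed, a choice made after the data were seen, the change from 8 to 18 dpp was -0.40 (limma adjusted p = 1.6e-04) and the level fell from 3024 TPM to 2312 TPM and to 287 TPM in the adult.

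Hspa1l (chr17:34972703-34979285, plus strand), the spermatid HSP70, had 1.64, 3.43 and 2.74 TPM at 8 dpp and 2.22, 1.76, 1.48, 1.58 and 1.35 TPM at 18 dpp, with overlapping ranges. The difference of -0.40 did not pass the test (limma adjusted p = 0.055). From 14 to 16 dpp, between 1.93 to 4.00 TPM and 1.25 to 2.01 TPM, it was -0.52 (limma adjusted p = 0.019), and this call was lost without 14 dpp mouse 6 (adjusted p = 0.054), 14 dpp mouse 7 (0.070) or 16 dpp mouse 1 (0.057). The adult pools had 22.8, 17.4, 23.7 and 24.1 TPM, a mean 13.1 times that of 18 dpp and above every juvenile mouse; as given above, these pools also held spermatid transcripts, whose part in this level was not tested. An antisense gene on the opposite strand, Gm10501, shared 71.4% of the 50-base words of Hspa1l and moved from 1.18 TPM at 18 dpp to 13.0 TPM in the adult; the sources used here do not say that strand was kept, so that the 2 cannot be told apart.

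The HSP70 genes of the cytosol changed in their proportions while the mean of their sum stayed between 1624 and 2122 TPM, as long as Gm26825 was not counted. Hspa2, Hspa8, Hspa1l and the stress-inducible pair Hspa1a and Hspa1b together amounted to 1738 ± 76.2 TPM at 8 dpp, 2122 ± 47.7 TPM at 18 dpp and 1723 ± 68.4 TPM in the adult (SD). The share of Hspa2 in this sum was 2.02% in mice of 8 dpp and 2.32% in those of 10 dpp. It was 5.34% and 7.85% in mice of 12 and 14 dpp, reached 19.7% and 39.5% in mice of 16 and 18 dpp, and stood at 89.8% in the adult pools. Hspa8 went from 93.5% at 8 dpp to 58.4% at 18 dpp and 8.75% in the adult. The order of both genes was thus opposite in the adult spermatocytes and in every juvenile mouse, where Hspa8 was higher throughout and the nearest ratio of Hspa2 to Hspa8 was 0.951. With Gm26825 counted as well, the share of Hspa2 was 1.12% at 8 dpp, 26.5% at 18 dpp and 83.2% in the adult. The mean sum was then 3137 TPM at 8 dpp, 3474 TPM at 16 dpp and 3195 TPM at 18 dpp, and lower in the adult at 1859 TPM. Hspa1a fell from 40.4 ± 5.72 to 20.7 ± 2.79 TPM (-0.93, limma adjusted p = 2.6e-06) and Hspa1b from 34.6 ± 2.36 to 22.1 ± 1.19 TPM (-0.62, limma adjusted p = 1.3e-06), with 1.86 and 1.82 TPM in the adult; both can share reads with each other.

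**Figure D2:**
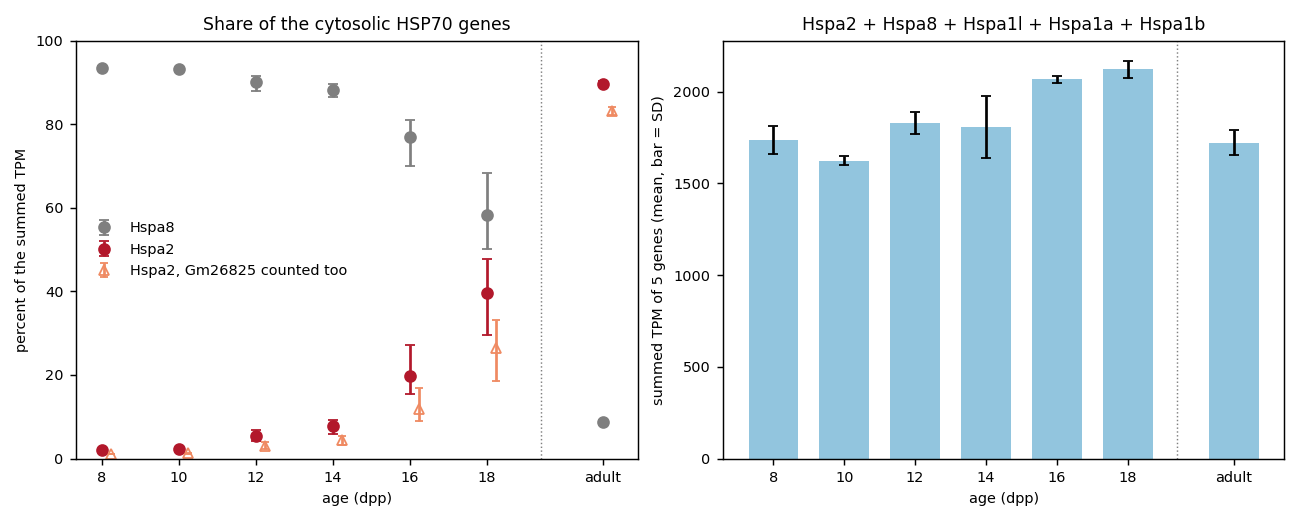
Left, percent of the summed TPM of 5 cytosolic HSP70 genes that is Hspa8 (grey) or Hspa2 (red) against age in dpp, with the mean and a bar from the lowest to the highest mouse or pool; open triangles give Hspa2 with Gm26825 added to the sum. Right, mean summed TPM of the 5 genes with SD, between 1624 and 2122 TPM in all 7 groups, while the share of Hspa2 goes from 2.02% to 89.8%. With Gm26825 added, which is not drawn on the right, the mean sum is 3137 TPM at 8 dpp and 1859 TPM in the adult.

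Clgn (chr8:83389867-83428552, plus strand), which encodes the testis-specific calnexin relative calmegin, rose most of the 10 genes. It had 10.9, 8.76 and 12.6 TPM at 8 dpp and 7.07, 8.83, 8.24, 7.40 and 9.53 TPM at 10 dpp, in overlapping ranges. At 12 dpp it had 24.5, 29.7, 38.8, 16.9 and 25.3 TPM, at 14 dpp 52.4, 35.6, 53.6, 55.6 and 47.5 TPM, and at 16 dpp 248, 149, 134, 126 and 197 TPM. The ranges of 12 and 14 dpp overlapped in 1 mouse of each age, and all other successive ages from 10 dpp on were apart. At 18 dpp it reached 554, 568, 513, 313 and 283 TPM and in the adult pools 1043, 1068, 1031 and 1012 TPM.

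The mean of Clgn was 41.6 times as high at 18 dpp (446 ± 137 TPM) as at 8 dpp (10.7 ± 1.92 TPM, SD), a difference of 5.20 ± 0.24 on the log2 scale (SE; limma adjusted p = 5.3e-16). Its steps of 1.56 at 12 dpp, 1.75 at 16 dpp and 1.37 at 18 dpp passed the test; that of 0.86 from 12 to 14 dpp did not (limma adjusted p = 0.078). The 2 annotated protein-coding transcripts shared in the rise, from 9.29 to 269.9 TPM for Clgn-202 (log2 difference 4.63) and from 1.45 to 176 TPM for Clgn-201 (6.19). As a description, Clgn-201 made up 13.1 ± 3.71% of the gene (SD) in mice of 8 dpp and 48.8 ± 4.46% in those of 16 dpp. Its share was 40.7 ± 4.91% at 18 dpp.

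Calr3 (chr8:72424176-72443870, minus strand), the testis-specific calreticulin, showed no such rise. Its juvenile values ran from 2.28 TPM in 1 mouse of 18 dpp to 6.25 TPM in 1 mouse of 12 dpp, the 6 ages overlapped, and the difference between 18 and 8 dpp was -0.24 (limma adjusted p = 0.24). The adult pools had 8.86, 4.91, 7.99 and 9.38 TPM, overlapping with 18 dpp. Their mean was 7.79 TPM, beside 1039 TPM for Clgn.

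Hspa5 and Calr, the general ER chaperones, moved as a pair. Hspa5 (chr2:34771970-34777547, plus strand) had 729.8, 627 and 671 TPM at 8 dpp and 616, 625, 654, 614 and 658 TPM at 10 dpp, and then 989.8, 1015, 1068, 973 and 1079.9 TPM at 12 dpp. Every mouse of 12 dpp was thus above every younger mouse. From 12 to 18 dpp the gene stayed between 951 and 1137 TPM and none of the steps passed the test.

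Calr (chr8:84841850-84846934, minus strand) had 716, 690.1 and 676 TPM at 8 dpp, 586, 629, 702, 684 and 656 TPM at 10 dpp and 914, 1016, 1030.4, 961 and 1067 TPM at 12 dpp, and stayed between 999 and 1190.5 TPM thereafter. Between 10 and 12 dpp Hspa5 rose by 0.69 ± 0.05 (SE; limma adjusted p = 1.3e-10) and Calr by 0.62 ± 0.05 (2.5e-09). In the adult pools both were lower again, with 551 to 604 TPM for Hspa5, below every juvenile mouse, and 611 to 625 TPM for Calr, within the range of 10 dpp and below that of 18 dpp. The main transcripts, Hspa5-201 and Calr-201, made up 85.7% and 85.8% of their genes at 8 dpp and 88.1% and 82.5% at 18 dpp, so that the rise was carried by the same transcript at both ages. Among the 7 genes with a promoter window, these 2 alone held the ER stress response element upstream of the start, as given above. Clgn and Hsf1, which were also called upward from 10 to 12 dpp, had no window. A part of the element in the rise was not tested.

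Hsf1 (chr15:76477422-76501913, plus strand), the heat shock factor, was called upward at the same single step, at a lower level. It had 37.5, 36.7 and 39.4 TPM at 8 dpp, 28.9 to 34.9 TPM at 10 dpp and 41.5 to 47.4 TPM at 12 dpp. The step from 10 to 12 dpp was 0.45 ± 0.07 (SE; limma adjusted p = 2.7e-05). At 14 dpp the range was 45.0 to 53.1 TPM and at 16 dpp 48.6 to 54.9 TPM, the latter above every mouse of 12 dpp. No later single step passed the test, and 12 against 16 dpp was not tested. At 18 dpp the mice had 51.3, 41.9, 55.9, 51.2 and 53.6 TPM. From 8 to 18 dpp the difference was 0.41 (limma adjusted p = 5.6e-05). The adult pools had 33.8 to 35.8 TPM, below 18 dpp and overlapping with 10 dpp.

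Hsf2 (chr10:57486385-57513135, plus strand) went the other way. It had 40.8, 34.2 and 40.1 TPM at 8 dpp, 29.8 to 34.7 TPM at 10 dpp, 26.6 to 31.0 TPM at 12 dpp, 27.0 to 30.1 TPM at 14 dpp and 23.8 to 26.2 TPM at 16 dpp. At 18 dpp 4 mice had 19.0, 19.4, 20.1 and 20.9 TPM and mouse 5 had 26.9 TPM. The difference from 8 to 18 dpp was -0.83 ± 0.09 (SE; limma adjusted p = 4.3e-09), and of the single steps only that from 16 to 18 dpp passed the test (-0.25, limma adjusted p = 0.0069). With median-of-ratios scaling this step was -0.09 with an adjusted p of 0.29. The adult pools had 9.12, 7.22, 10.0 and 8.28 TPM, below every juvenile mouse. Hsf1 and Hsf2 were thus level at 8 dpp (mean ratio of Hsf2 to Hsf1 of 1.01), and Hsf2 stood at 0.421 of Hsf1 at 18 dpp and at 0.25 in the adult pools.

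Set out by step, 0 of the 10 genes were called from 8 to 10 dpp by limma, against 1.2% of all genes (245 called, and 2337 with an unadjusted p under 0.05). From 10 to 12 dpp 6 were called, all upward (Hspa2, Hspa4l, Clgn, Hspa5, Calr and Hsf1), against 12.0% of all genes upward and 21.4% in either direction. From 12 to 14 dpp 0 were called, against 0.172% of all genes (0.157% upward and 0.0147% downward; 35 called, and 1962 with an unadjusted p under 0.05). From 14 to 16 dpp Hspa2, Hspa4l and Clgn rose and Hspa1l fell, against 24.0%, and from 16 to 18 dpp the same 3 rose and Hspa8 and Hsf2 fell, against 54.0%. Over the step from 10 to 12 dpp the mean sum of the Sertoli markers went from 7181 to 7103 TPM and that of the spermatocyte markers from 327 to 672 TPM. Most of the Sertoli sum was Clu, and its markers moved in opposite directions at this step. The means of Amh, Wt1, Gata4, Inhbb and Sox9 were lower at 12 dpp, and those of Rhox5, Cldn11 and Clu were higher. The near-level Sertoli sum thus does not show that Sertoli transcripts were unchanged. Sums for peritubular cells (1600 to 1908 TPM), Leydig cells (242 to 329 TPM) and macrophages (32.0 to 61.9 TPM) were also higher at 12 dpp, and their part in the 6 rises was not tested. From 16 to 18 dpp the Sertoli sum went from 5674 to 3684 TPM beside the falls of Hspa8 and Hsf2. The sums for spermatogonia (684 to 480.1 TPM), peritubular cells (1590 to 1098 TPM), Leydig cells (307 to 267 TPM), macrophages (105 to 71.3 TPM), red blood cells (350.4 to 308 TPM) and endothelial cells (61.1 to 46.8 TPM) were lower as well, and the part of these in the falls was not tested.

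The adult pools did not overlap with the mice of 18 dpp in 9 of the 10 genes, against 75.7% of all genes. Hspa2, Hspa4l, Clgn and Hspa1l were above 18 dpp (22.3% of all genes) and Hspa8, Hspa5, Calr, Hsf1 and Hsf2 below (53.3%). In mean level the order at 8 dpp was Hspa8, Calr, Hspa5, Hspa4l, Hsf2, Hsf1, Hspa2, Clgn, Calr3 and Hspa1l, in which Calr and Hspa5, and the run of Hsf2, Hsf1 and Hspa2, overlapped between mice. At 18 dpp it was Hspa8, Calr, Hspa5, Hspa2, Clgn, Hspa4l, Hsf1, Hsf2, Calr3 and Hspa1l, and the neighbours from Hspa8 to Hspa2 overlapped, as did Clgn with Hspa4l. In the adult pools the order was Hspa2, Clgn, Hspa4l, Calr, Hspa5, Hspa8, Hsf1, Hspa1l, Hsf2 and Calr3, in which the neighbours Hsf2 and Calr3 overlapped and all other neighbours were apart.

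**Figure D3:**
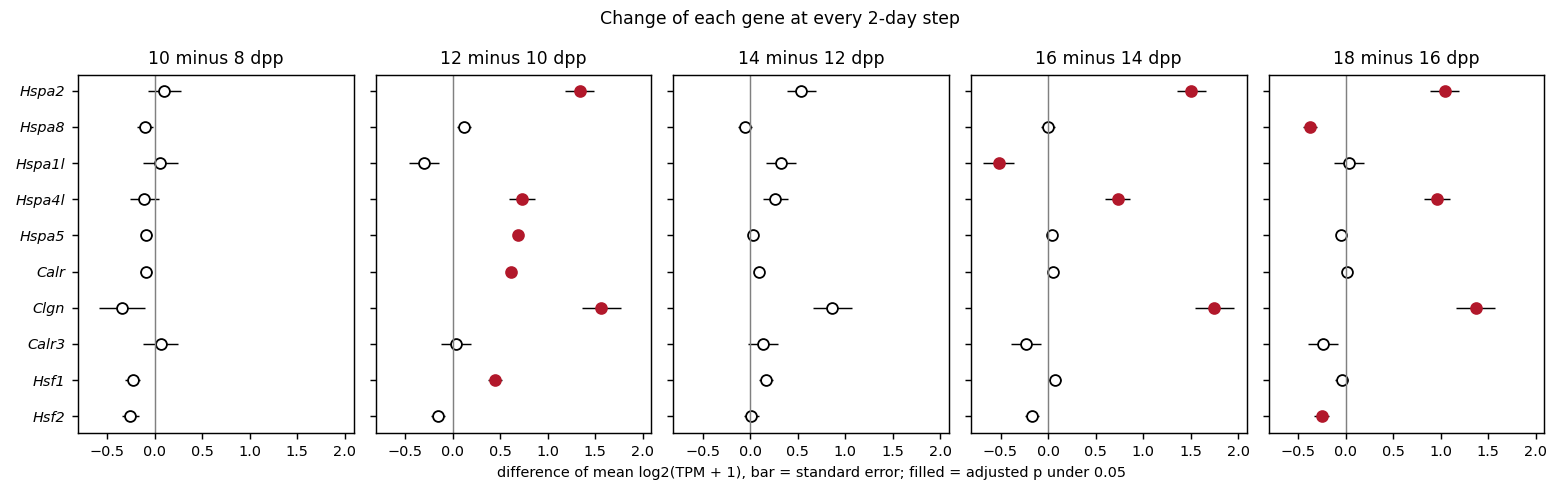
Difference of mean log2(TPM + 1) at each 2-day step for the 10 genes (horizontal axis, bar for the standard error), with filled points for limma adjusted p under 0.05. At the step from 10 to 12 dpp 6 genes are filled, at those from 8 to 10 and 12 to 14 dpp none is, and at the last 2 steps Hspa2, Hspa4l and Clgn are filled on the right.

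Mice of 18 dpp differed among themselves. Mice 4 and 5 were below mice 1 to 3 without overlap in Hspa2 (633 to 671 against 947 to 992 TPM), Hspa4l (258 to 271 against 383 to 424 TPM) and Clgn (283 to 313 against 513 to 568 TPM). They were above mice 1 to 3 in Hspa8 (1374 to 1466 against 1043 to 1205 TPM), in Hspa5 and in Hsf2. Restricted to mice 1 to 3 of every age, an alternative chosen after these values were seen, the changes from 8 to 18 dpp were 4.75 for Hspa2, 2.82 for Hspa4l, 5.55 for Clgn, -0.54 for Hspa8 and -0.94 for Hsf2, each still called by limma. Since mice 4 and 5 of 18 dpp had the smaller changes in these genes, larger changes without them follow from the choice and add no support.

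Each gene was set against 1 related gene as a ratio of TPM within a library. Such ratios are unaltered by a factor per library (quantile normalization, which is not such a factor, can alter them) and are given as a description. Relative to Hspa8, Hspa2 went from a mean log2 ratio of -5.54 at 8 dpp to -0.58 at 18 dpp and 3.36 in the adult. Relative to Hspa4, the general HSP110 gene at 181 TPM at 8 dpp and 183 TPM at 18 dpp (difference 0.01, not called), Hspa4l went from -1.67 to 0.91 and 1.18, and was higher than Hspa4 in every mouse of 16 and 18 dpp. Relative to Canx, which itself rose from 198 to 292 TPM (0.56, limma adjusted p = 6.4e-08), Clgn went from -4.22 to 0.55 and 2.64. Calr3 stayed far below Calr, with -7.29 at 8 dpp, -8.27 at 18 dpp and -6.36 in the adult. The ratio of Hspa1l to Hspa8 was between -10.20 and -8.45 in every juvenile mouse and -2.79 on average in the adult. Hspa1l shared 9.6% and 7.7% of its 50-base words with Hspa1a and Hspa1b, which were not used as its relative here. In the adult pools Hspa1l had 17.45 to 24.14 TPM, against 0.52 to 4.57 TPM for Hspa1a and 0.7 to 4.92 TPM for Hspa1b. In 3 of the 6 pairs compared (Hspa2, Hspa4l and Clgn) the testis-enriched gene was higher than the other gene of the pair in every adult pool.

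**Figure D4:**
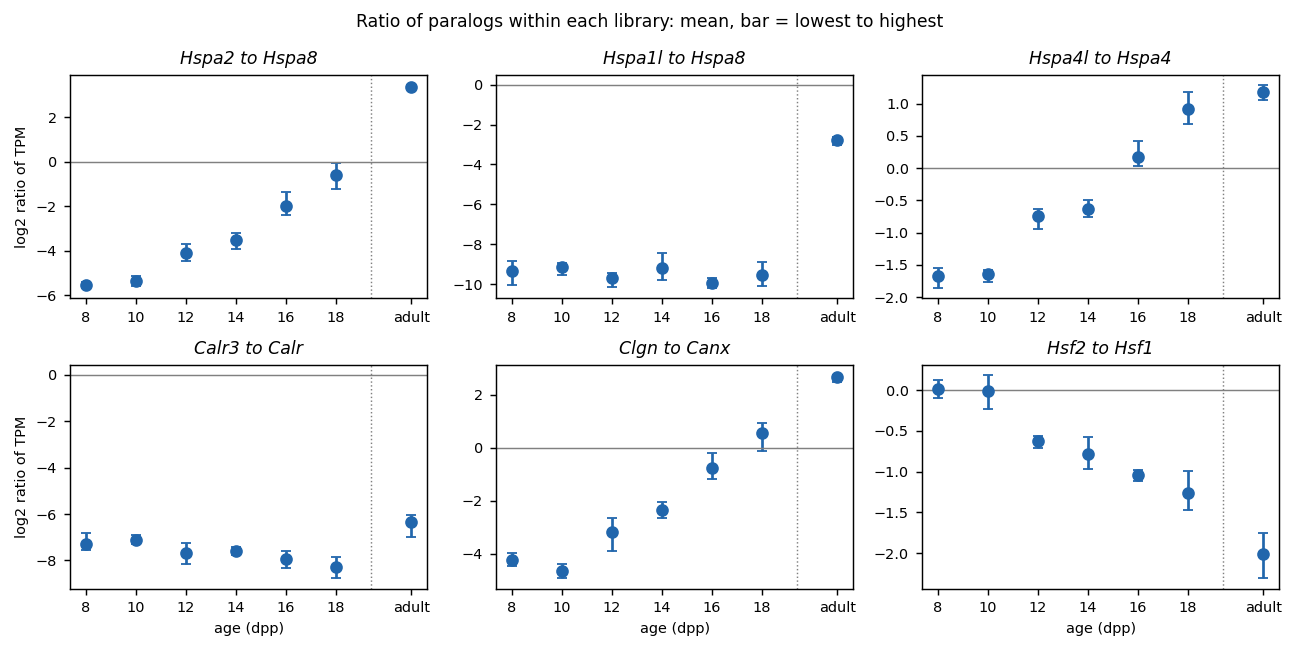
Log2 ratio of TPM of each gene to its relative, within each library, against age in dpp (point for the mean, bar from the lowest to the highest library, 0 for equal levels). Hspa2 to Hspa8, Hspa4l to Hspa4 and Clgn to Canx cross from below to above 0 by the adult, Hsf2 to Hsf1 falls from 0.02 at 8 dpp to -2.01 in the adult, and the ratios of Hspa1l to Hspa8 and of Calr3 to Calr stay below 0.

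Genes with the most similar course over the 28 mice were sought for each member by Pearson's r of log2(TPM + 1), as a description without a test, since all points share the 6 ages. For Hspa2 these were Morc2b (0.998) and Gm3448 (0.997), for Clgn Pdha2 (0.997), the testis form of the pyruvate dehydrogenase subunit, and Morc2b (0.996), and for Hspa4l Cep126 and Ift122 (0.996 and 0.994), a pair of cilium and centrosome genes. Hspa2 and Clgn themselves had r = 0.996. For Hspa5 the closest gene was Calr and the reverse (0.980), followed by Mcf2 for Hspa5 and by Saraf for Calr (0.976 each). Hsf1 was most like Derl3 (0.917), an ER-associated degradation gene, and H2-K1 (0.911), Hsf2 like Rab5a (0.939) and Sp3 (0.938), and Hspa8 like Gm26825 (0.986), with which it shares sequence, and Ifi27 (0.926). The low genes had weaker companions, Gm8113 (0.740) and Aurkb (0.728) for Hspa1l, and Sp3os (0.715) and Rasgrp2 (0.701) for Calr3.

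Other genes of the chaperone system were taken from 8 lists of 145 genes, of which 134 were tested. From 8 to 18 dpp 73 of them rose, 30 fell and 31 were not called, against 31.8% of all genes upward and 36.3% downward. The median log2 difference over the 134 genes was 0.25, and over all genes it was -0.09. Of 21 tested genes of the HSP70 family and its cofactors 8 rose and 3 fell (median 0.12); Bag5, an HSP70 cochaperone, rose by 2.31 and Hsph1, an HSP110 gene, by 1.25, while Hspa1a and Hspa1b, described above, were the largest falls. After quantile normalization this list had 6 rises and 6 falls.

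J-domain proteins, which hand substrates to HSP70, had 23 rises and 7 falls among 37 genes (median 0.39). Dnajb13, a sperm flagellum gene, rose from 0.55 to 40.3 TPM (4.59) and Dnajc5g from 2.08 to 71.7 TPM (4.51), whereas Dnajb12 fell by 0.96 and Dnajc5 by 0.87 on the log2 scale. In the HSP90 group 9 of 15 rose and 3 fell (median 0.28). The cytosolic pair in it moved apart, with Hsp90aa1 from 669 ± 64.1 to 1719 ± 139 TPM (1.36, limma adjusted p = 1.8e-12) and Hsp90ab1 from 1975 ± 22.9 to 1068 ± 123 TPM (-0.89, limma adjusted p = 1.6e-12), and with 2595 and 221 TPM in the adult. Chordc1 rose by 0.93 and Unc45a, a myosin cochaperone, fell by 0.64.

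Of 8 tested small heat shock protein genes 4 rose and 2 fell. Hspb9, a testis-specific member, went from 1.37 to 377 TPM (7.17) with 1404 TPM in the adult, and Hspb6 from 4.29 to 38.1 TPM (2.88). Hspb1 fell from 407 to 127 TPM (-1.70) and Hspb8 from 14.3 to 3.86 TPM (-1.68), with 12.7 and 0.147 TPM in the adult. All 4 tested genes for other heat shock factors and their binders rose. Hsf5, the testis-specific factor, went from 1.41 ± 0.22 to 79.0 ± 24.0 TPM (5.00, limma adjusted p = 8.0e-16) and 185 TPM in the adult, and Hsf2bp, which encodes an HSF2-binding protein with a known part in meiotic recombination, from 14.3 to 55.6 TPM (1.92). The mean level of Hsf5 at 18 dpp was above those of Hsf1 (50.8 TPM) and Hsf2 (21.3 TPM). Hsf3 and Hsf4 stayed under 3 TPM in every juvenile mouse.

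Of 17 chaperonin genes 10 rose and 4 fell. Cct6b, the testis form of a subunit of the cytosolic chaperonin, rose from 0.98 to 115 TPM (5.75) and Tcp1 from 322 to 1108 TPM (1.74), while Hspe1, the mitochondrial cochaperonin, fell by 0.66 and the prefoldin subunit Vbp1 by 0.56. Known client proteins of calmegin and calreticulin 3 had 3 rises among 4 genes, with Adam2 at 0.10 TPM at 8 dpp and 234 TPM at 18 dpp (7.66) and Adam3 at 0.10 TPM and 230.3 TPM (7.48). From 10 to 12 dpp, a step at which Clgn rose, 1 of the 4 was called, Adam2 (2.14, limma adjusted p = 1.1e-07), while Adam3 (0.37), Adam1b (0.37) and Adam1a (0.08) were not.

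The ER folding list, which holds neither Hspa5 nor Calr, was divided from 8 to 18 dpp, with 12 rises and 11 falls among 28 genes (median -0.07). With median-of-ratios scaling it had 13 rises and 7 falls. The largest rises were Ero1lb, an ER oxidase (14.4 to 83.9 TPM, 2.45), and Uggt2 (6.19 to 32.5 TPM, 2.20), and the largest falls Ganab (-0.72) and Txndc5 (-0.71). At the step from 10 to 12 dpp, in contrast, 13 of the 28 rose and 0 fell by limma (12 and 1 with median-of-ratios scaling, 12 and 0 after quantile normalization), against 12.0% and 9.39% of all genes. Among the 13, named after their values were seen, were Ero1lb (0.90), Sdf2l1 (0.74), Creld2 (0.60) and Manf (0.53), and the protein disulfide isomerases Pdia6 (0.43) and Pdia4 (0.42). Genes of the list for regulators of the unfolded protein response, Xbp1 (0.19), Ddit3 (0.34), Atf4 (0.08), Atf6 (-0.08), Ern1 (0.20) and Eif2ak3 (-0.14), were not called, and the activity of their products was not measured. The oxidase Ero1l (-0.04) was not called either, and Canx rose by 0.23. Of the genes named as rising at this step, Pdia4 did not differ between 18 and 8 dpp beyond the test (-0.09).

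**Figure D5:**
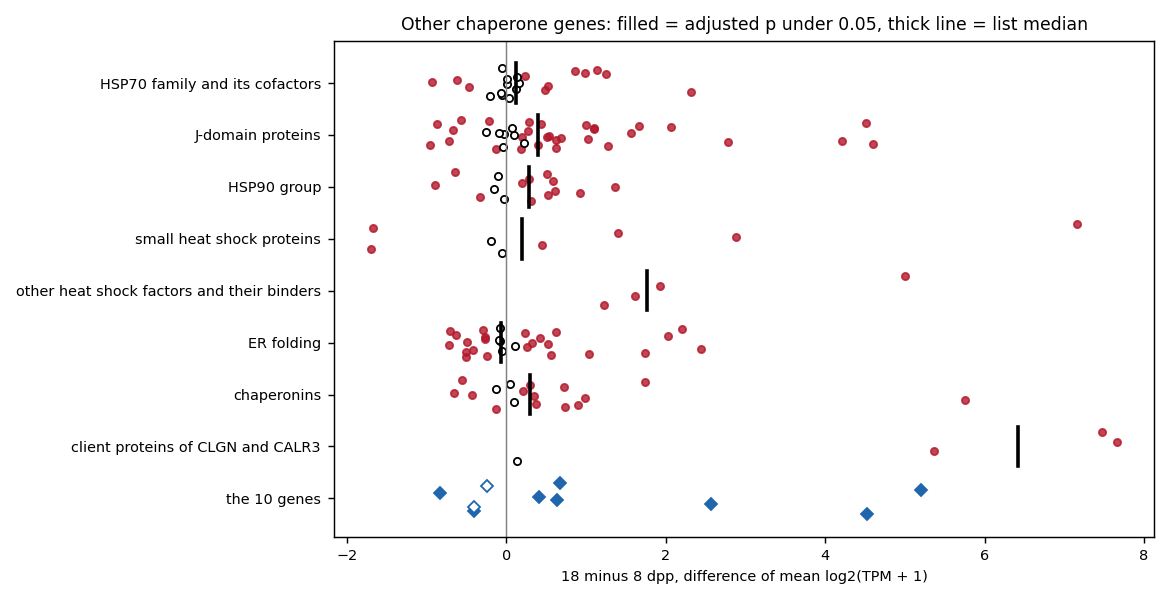
Difference of mean log2(TPM + 1) between 18 and 8 dpp for the 134 tested genes of 8 chaperone lists (red or open circles) and the 10 genes followed here (blue diamonds), filled where the limma adjusted p was under 0.05, with a thick line at the list's median. Medians run from -0.07 in the ER folding list to 6.42 in the 4 client genes, and the rises of Hspa2 and Clgn are matched by single genes of several lists.

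At the transcript level, 30 transcripts of the 10 genes reached 3 TPM and 16 of them were called between 18 and 8 dpp by limma, 13 upward and 3 downward, against 44.1% of 41089 transcripts. Hspa4l-201, the main transcript of its gene, rose from 35.8 to 246 TPM (2.72) and 2 further transcripts of the gene also rose. For Hspa8 the main transcript Hspa8-201 had 1408 TPM at 8 dpp and 1049 TPM at 18 dpp (-0.43, limma adjusted p = 6.4e-05). Hspa5-202, a second protein-coding transcript of Hspa5, went from 84.5 to 104.8 TPM (0.30, limma adjusted p = 0.029), less than the main one (0.67). A retained-intron transcript of Calr, Calr-204, rose with the main transcript, from 91.7 to 182 TPM (0.96).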

How the data were processed

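RNA-seq libraries of 28 juvenile mice and 4 adult spermatocyte pools were used. The authors prepared poly-A libraries, aligned reads to transcripts of mm10 with Bowtie 1.0.0 and estimated TPM with RSEM 1.2.8 before they deposited the tables. The deposited transcript table and adult table hold TPM. The deposited juvenile gene table holds a score, exp(log2(TPM + 1)) - 1, which was found by setting it beside sums of transcripts, and values were returned to TPM; 20288 genes were then within 0.2 TPM of those sums and 80 were not. TPM keeps no read depth, so that precision is given by the spread between mice alone.

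Symbols were mapped with GENCODE M21. The test was limma 3.58.1 (R 4.3.3) on log2(TPM + 1), a pseudocount of 1, with 6 ages in 1 model, a variance prior that depends on the mean, and Benjamini-Hochberg adjustment over 20368 genes with at least 3 TPM in at least 1 mouse; the method was tested on simulated data. Fold changes on this scale understate changes of low genes. Each mouse was 1 sample. Genes named were the 10 members, their nearest paralogs, the 2 largest called rises and falls of each list, and the 2 most similar genes of each member; other genes (of the ER folding list at 12 against 10 dpp, the other client genes, Hsf3, Hsf4, and genes that share sequence with a member) were named after their values were seen. Members and lists were chosen with earlier results of these data known. Alternatives covered the pseudocount, the filter, scaling, the variance prior, the ages and mice in the model, and single mice. Sequences came from RefSeq on GRCm38.p6. Python 3.11.15 with pandas 2.3.3, numpy 2.4.6 and matplotlib 3.10.9 was used for the rest.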

Additional observations from a re-analysis of the deposited data

Results flagged for a closer look

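In the group of 18 dpp, mouse 5 had the highest Hsf2 level, 26.94 TPM, and lay apart from the other 4 mice, which had 19.0 to 20.9 TPM; the gap was 0.728 of the range of the group on the log2 scale. This was 1 of 60 groups of 4 or 5 samples examined, and chance gives such a gap in about 1 group in 20. Without this mouse Hsf2 was still called lower at 18 than at 8 dpp.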

How the results depend on the processing

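Changes of single members were recomputed 885 times over 35 results; 870 kept direction and side of the threshold, 8 lost the call, 7 gained it and 0 reversed. Lost were Hspa8 at 18 against 8 dpp after quantile normalization (-0.02, adjusted p = 0.79; range over alternatives 7.4e-07 to 0.79), Hspa1l at 16 against 14 dpp with the replicate block (-0.29), in mice 1 to 3 (-0.37) and without 3 single mice, and Hsf2 at 18 against 16 dpp with median-of-ratios factors (-0.09) and with 2 ages alone (adjusted p = 0.0502). Gained were Hspa1l at 18 against 8 dpp in 5 settings (adjusted p over all settings from 3.4e-04 to 0.31) and Calr3 after quantile normalization (-0.50, adjusted p = 0.025; any age, 0.0125). All-gene counts for 10 versus 8 dpp went from 245 to 129 with 2 ages alone and from 106 to 205 when 1 mouse was left out (106 to 140 without 1 mouse of 8 dpp). Those for 14 versus 12 dpp went from 35 to 7 without a filter, 16 with median-of-ratios factors, 12 after quantile normalization, 6 with 2 ages alone, 1 in mice 1 to 3 and 2 to 129 when 1 mouse was left out, with 0 to 1 members called. The ratio of Hspa1l to Hspa8, 18 minus 8 dpp, ranged from -0.53 to 0.0566 when 1 mouse was left out, the positive value without 8 dpp mouse 2. Calls at 18 against 8 dpp divided into 6487 up and 7402 down, 7589 and 5991 with median-of-ratios factors, and 5532 and 9148 after quantile normalization, which moved the all-gene median from -0.0939 to 0.0492 and -0.264. The cause of these changes was not tested.

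Mice of the same number shared no label beyond it, and their deviations correlated between -0.248 and 0.253 (3 of 57 pairs over 0.1), so that the pairing is by number alone. With the number as a replicate block, 131 genes were called for 10 versus 8 dpp and 0 for 14 versus 12 dpp.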
